A study of Mus musculus with 13 samples.

Results

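The T-box genes described here are T (brachyury), Eomes, Tbx1, Tbx2, Tbx3, Tbx4, Tbx5, Tbx6, Tbx18 and Tbx20. They are 10 of the 22367 protein-coding genes on chromosomes 1 to 19, X and Y in the GENCODE vM1 annotation of the mm9 mouse genome, and 10 of the 17 T-box genes found there. The members were given as a list of names. For each gene, the peaks of every list that overlapped its promoter (a window of 1 kb up and downstream of the transcription start site) or its gene body were collected, with their length and the rank of their score within the list. Each gene had 1 record in the annotation, and the start site was the 5′ end of that record.

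The study asked where AEBP2, an accessory subunit of Polycomb repressive complex PRC2, sits in the genome of mouse embryonic stem cells (mESCs), and how this relates to H3K27me3, the histone mark that PRC2 deposits. Of its 13 ChIP-seq samples, 5 have a list of peaks and were used. These are endogenous AEBP2 in 2 replicates, H3K27me3 in 2 replicates, and FS2-AEBP2, an AEBP2 with an N-terminal Flag-StrepII tag, in 1 sample without a replicate. All 5 samples are labelled wild-type and come from a male ES cell line of strain 129/1. The methods of the study name the pCAG plasmid and E14 mESCs for the expression of the tagged protein, and a different ChIP protocol for it. The labels give the antibody target as H3K27 and the study gives the mark as H3K27me3. They do not say whether replicates were separate cultures. For H3K27me3, the file names and the sample records appear to number the replicates in opposite ways, and the records were followed here. Samples for SUZ12, the inputs and the AEBP2 KO cells were not analysed here. The lists hold 2877 and 6779 AEBP2 peaks, 2884 FS2-AEBP2 peaks, and 14112 and 9275 H3K27me3 peaks on the chromosomes used, without read counts, so the depth is unknown and a missing peak means only that none passed the authors' threshold.

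T-box genes encode transcription factors that share the T-box, a DNA-binding domain first described in brachyury. They act in the primitive streak, the mesoderm, the heart and the limb, and many are silent in undifferentiated mESCs and switched on as cells differentiate. Polycomb complexes keep such developmental genes repressed, PRC2 by methylating lysine 27 of histone H3, and in mammals PRC2 is found mostly at promoters rich in CpG dinucleotides. Tbx3 is an exception among the members in that it is known to be expressed in mESCs, where it takes part in self-renewal.

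The promoter sequences below are shown because the members differed in CpG content and in having peaks. T, Eomes, Tbx1 and Tbx20 had a promoter peak in all 5 lists and a CpG-island-like region within the promoter, and Tbx6 had neither. Each run is read from the mm9 genome, 5′ to 3′ on the strand of the gene, from 250 bases before the start site to 49 after it, in lower case with every CpG in capitals. T is chr17:8627038-8627337 on the plus strand with 17 CpG, Eomes is chr9:118387080-118387379 on the plus strand with 9, and Tbx1 is chr16:18588064-18588363 on the minus strand with 32. Tbx20 is chr9:24578697-24578996 on the minus strand with 26, and Tbx6 is chr7:133924747-133925046 on the plus strand with 7. The runs of T, Tbx1 and Tbx20 lie inside a CpG-island-like region. That of Eomes lies mostly between such regions, which run from 759 to 250 bp before the start site and from 11 to 1580 bp after it. Its GC content is 47.0%, against 57.7% for Tbx6, so this run does not itself show island-like sequence.
T: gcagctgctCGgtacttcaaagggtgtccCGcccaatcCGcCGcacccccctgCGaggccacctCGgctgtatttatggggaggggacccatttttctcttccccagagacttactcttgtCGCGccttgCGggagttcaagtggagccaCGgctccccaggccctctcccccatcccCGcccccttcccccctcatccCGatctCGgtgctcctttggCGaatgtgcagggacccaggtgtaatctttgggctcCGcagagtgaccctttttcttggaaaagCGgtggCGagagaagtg
Eomes: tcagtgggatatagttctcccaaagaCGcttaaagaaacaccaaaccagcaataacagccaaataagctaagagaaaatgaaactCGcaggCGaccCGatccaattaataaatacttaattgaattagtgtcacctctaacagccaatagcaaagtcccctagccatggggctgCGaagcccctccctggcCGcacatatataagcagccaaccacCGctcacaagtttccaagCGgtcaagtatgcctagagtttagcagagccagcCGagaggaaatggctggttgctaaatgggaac
Tbx1: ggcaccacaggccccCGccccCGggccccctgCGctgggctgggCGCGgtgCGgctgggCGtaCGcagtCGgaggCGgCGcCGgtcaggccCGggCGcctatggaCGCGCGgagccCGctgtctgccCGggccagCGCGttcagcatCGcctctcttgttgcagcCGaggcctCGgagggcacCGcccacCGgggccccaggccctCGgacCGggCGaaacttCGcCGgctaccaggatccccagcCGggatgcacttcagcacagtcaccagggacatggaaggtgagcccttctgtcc
Tbx20: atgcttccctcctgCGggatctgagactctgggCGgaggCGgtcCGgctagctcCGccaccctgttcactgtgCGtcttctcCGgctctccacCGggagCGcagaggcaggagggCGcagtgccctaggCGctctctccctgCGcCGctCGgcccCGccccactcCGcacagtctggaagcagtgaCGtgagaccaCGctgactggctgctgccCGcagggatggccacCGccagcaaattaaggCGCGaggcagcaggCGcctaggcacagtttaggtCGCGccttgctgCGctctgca
Tbx6: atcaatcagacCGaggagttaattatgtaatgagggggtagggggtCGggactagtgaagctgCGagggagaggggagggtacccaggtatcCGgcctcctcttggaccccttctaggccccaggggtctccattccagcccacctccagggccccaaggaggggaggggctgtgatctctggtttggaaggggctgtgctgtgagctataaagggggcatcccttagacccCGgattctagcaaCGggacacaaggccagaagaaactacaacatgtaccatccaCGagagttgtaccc

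In every one of the 5 lists, 9 of the 10 genes had a peak at the promoter, and it was the same 9 genes. Tbx6, which specifies the presomitic mesoderm, had none. Over all 22367 promoters, the share with a peak was 9.08% in AEBP2 replicate 1, 22.3% in AEBP2 replicate 2, 6.53% for FS2-AEBP2, and 17.0% and 17.7% in the H3K27me3 replicates. A peak in all 5 lists was found at 4.57% of all promoters, or 1023. The share with AEBP2 in both replicates was 8.44%, with H3K27me3 in both replicates 15.0%, and with AEBP2 and H3K27me3 each in both replicates 5.88%, and each of these conditions was met by the same 9 genes. The same could be asked of the promoters that carry the mark. Of the 3349 promoters with H3K27me3 in both replicates, 40.9% had a peak of AEBP2 replicate 1, 68.3% of AEBP2 replicate 2 and 38.2% of FS2-AEBP2, 39.3% had AEBP2 in both replicates and 30.5% had a peak in all 5 lists, where all 9 marked T-box genes did. The members were listed with results of these data known, so these shares are descriptions and were not tested.

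**Figure D1:**
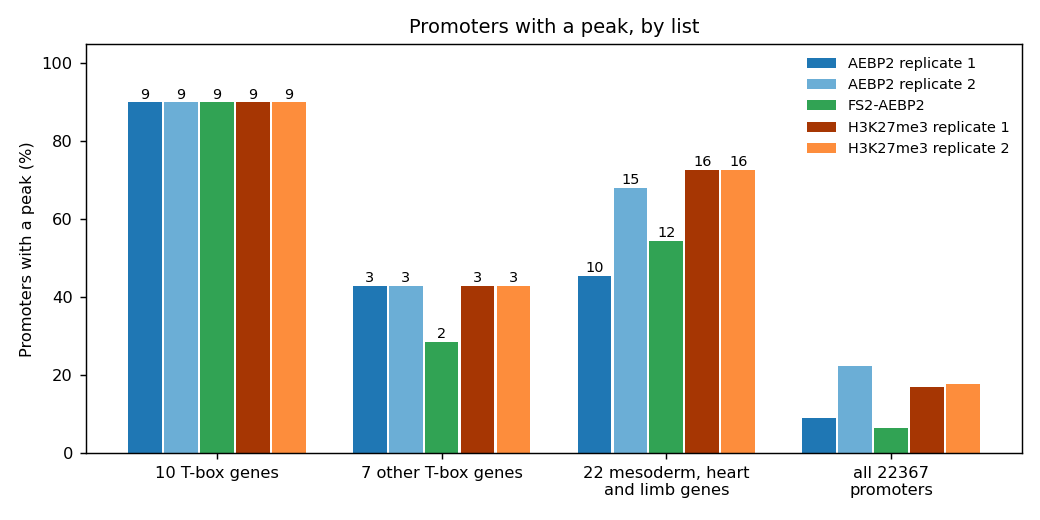
Bars give the percentage of promoters (start site and 1 kb on either side) with a peak in each of the 5 lists, for the 10 T-box genes, the 7 other genes of the family, 22 genes of mesoderm, heart and limb, and all 22367 promoters. Numbers above the bars are counts of genes, and the T-box bars stand at 9 of 10 in each list.

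The peaks over these promoters were long. Taking the longest peak at each promoter, its median over the 9 genes was 4530 bp in AEBP2 replicate 1, 5811 bp in AEBP2 replicate 2 and 6150 bp for FS2-AEBP2, where the medians over all promoters with a peak were 1243.5, 872 and 1409 bp. For H3K27me3 the medians were 18896 and 16257 bp, where those over all promoters with a peak were 4864 and 3970.5 bp. The peaks exceeded the median of their list's promoters at all 9 genes in the 4 endogenous lists and at 8 for FS2-AEBP2. They exceeded the upper quartile at 8 genes in AEBP2 replicate 1, 9 in AEBP2 replicate 2, 7 for FS2-AEBP2, and 9 and 8 in the H3K27me3 replicates. The genes below that quartile in some list were Tbx20 (AEBP2 replicate 1 and FS2-AEBP2), Tbx18 (FS2-AEBP2) and Eomes (H3K27me3 replicate 2). At 8 of the 9 genes, both H3K27me3 peaks were longer than any of the 3 AEBP2 peaks. This was not counted over all promoters, where the H3K27me3 medians were also the longer ones. The exception was Eomes, where H3K27me3 replicate 2 had separate peaks that measured 14747 bp when joined within 1 kb. The peak of AEBP2 replicate 2 was longer than that of replicate 1 at 7 genes, Tbx1 and Tbx3 being the others, so lengths are given for each replicate. Joining peaks within 1 kb of each other raised the median to 5522 bp in AEBP2 replicate 1, 12321 bp in AEBP2 replicate 2 and 10000 bp for FS2-AEBP2, with the largest change at Tbx3 in AEBP2 replicate 2, from 1882 to 16766 bp.

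**Figure D2:**
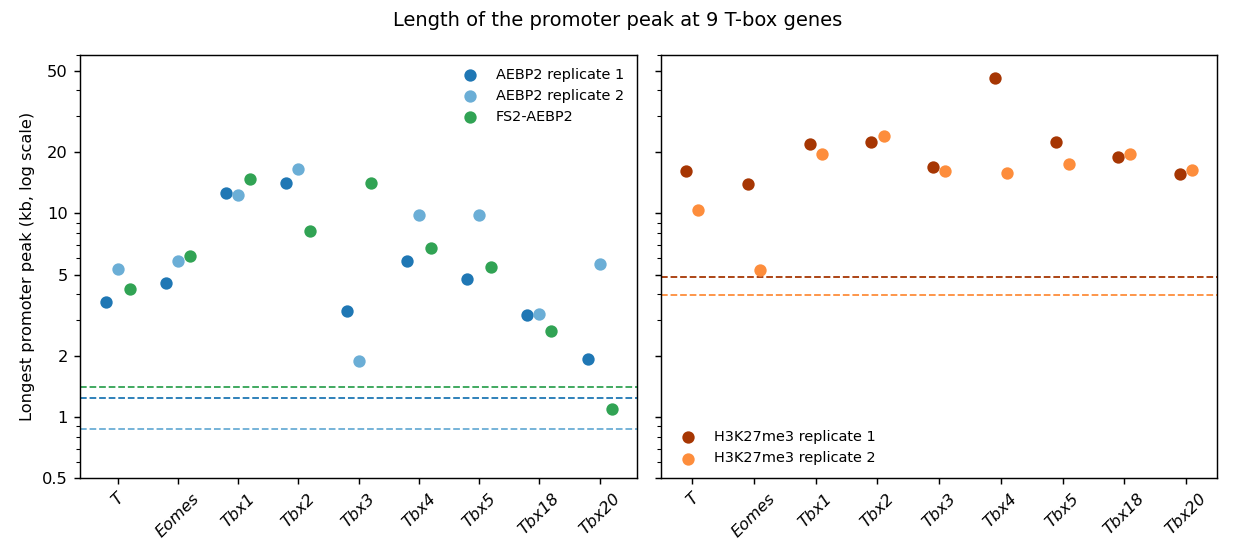
Length of the longest promoter peak in kb (log scale) for 9 T-box genes, with 1 point per list, AEBP2 lists on the left and H3K27me3 lists on the right. Dashed lines give the median over all promoters with a peak in the list of the same colour. Tbx6 has no peak and is not drawn. Tbx20 for FS2-AEBP2, at 1095 bp, is the single point below its line.

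T and Eomes are the first T-box genes of gastrulation. T is needed for mesoderm formation and the notochord, and Eomes for trophoblast, definitive endoderm and the exit of mesoderm from the primitive streak. T (ENSMUSG00000062327) lies on the plus strand at chr17:8627288-8635361. The peak at its promoter was 3655 bp long in AEBP2 replicate 1, 5303 bp in replicate 2 and 4234 bp for FS2-AEBP2, and 16145 and 10357 bp long for H3K27me3. The 3 AEBP2 peaks ended at nearly the same place, 1771, 1960 and 2199 bp after the start site, and each overlapped exons 1 to 3 of the 8 exons of transcript T-001. The H3K27me3 peaks ran further in both directions, from 8704 bp before to 7440 bp after the start site in replicate 1, over all 8 exons, and from 6290 bp before to 4066 bp after it in replicate 2, over exons 1 to 5. H3K27me3 thus covered 92.2% of the T gene body in replicate 1 and 50.4% in replicate 2, whereas AEBP2 covered 21.9% and 24.3% and FS2-AEBP2 27.2%.

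Eomes (ENSMUSG00000032446) lies on the plus strand at chr9:118387330-118395250. AEBP2 was called over 4530 bp at its promoter in replicate 1 and 5811 bp in replicate 2, FS2-AEBP2 over 6150 bp, and H3K27me3 over 13947 and 5242 bp. The H3K27me3 replicates differed in how they divided the same stretch. Replicate 1 had 1 peak from 3838 bp before to 10108 bp after the start site, and replicate 2 had 3 peaks of 5242, 2645 and 5400 bp from 4703 bp before to 10043 bp after it. The gene body was covered by H3K27me3 to 100% and 81.6%, by AEBP2 to 32.2% and 32.6%, and by FS2-AEBP2 to 59.0%. Past the 3′ end of Eomes lie CpG-island-like regions of 670 and 530 bp, and AEBP2 replicate 2 had a peak of 2711 bp over both of them, FS2-AEBP2 a peak over the nearer one, and AEBP2 replicate 1 none.

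Tbx6 (ENSMUSG00000030699) lies on the plus strand at chr7:133924997-133929074. None of its 8 exons and none of its 4078 bp lay in a peak of any list. From its start site, the nearest peak was 131789 bp away in AEBP2 replicate 1, 66094 bp in replicate 2, 698381 bp for FS2-AEBP2, and 66003 and 65657 bp for H3K27me3. The peaks of AEBP2 replicate 2 and of both H3K27me3 replicates were those nearest to the start site of Doc2a, a gene of synaptic vesicle release. Tbx6 therefore lies outside any marked domain in these lists. The CpG-island-like region closest to it, from 5036 to 4027 bp before its start site, is nearer to the start site of Ypel3 and also had no peak.

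**Figure D3:**
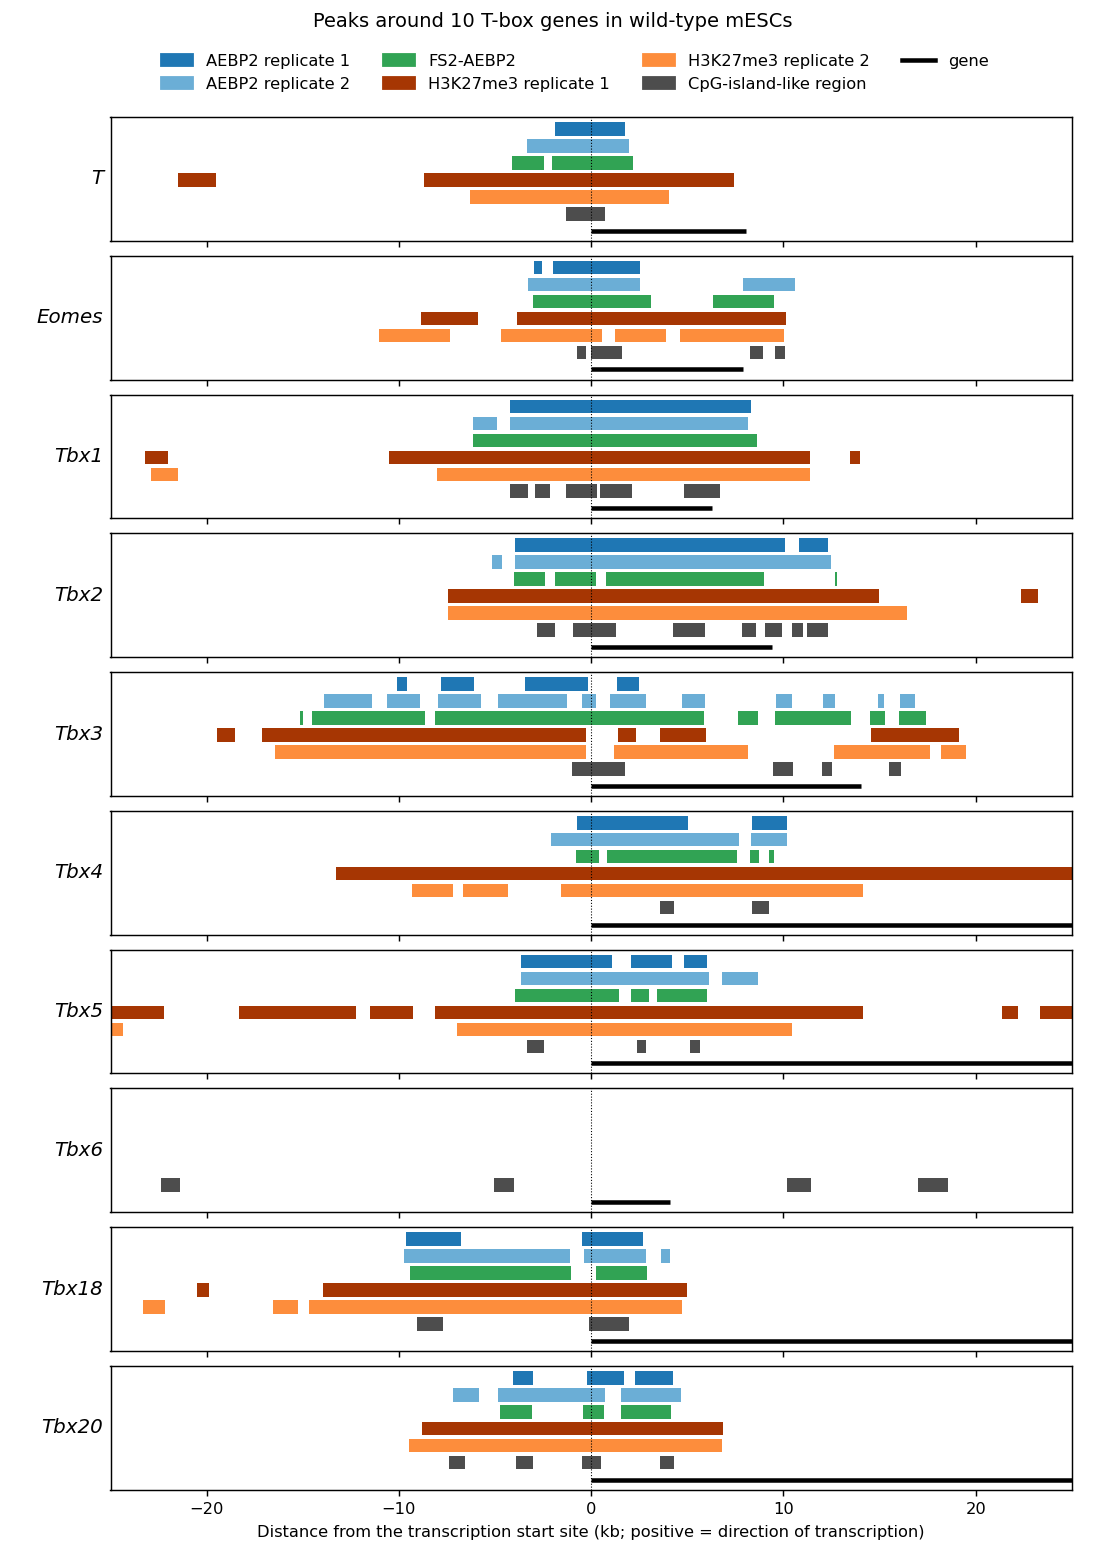
Peaks of the 5 lists (coloured bars), CpG-island-like regions (grey) and the gene (black line) at the 10 T-box genes, by distance in kb from the transcription start site (dotted line), drawn to scale and with transcription to the right, for 25 kb on either side. H3K27me3 bars run past the AEBP2 bars at most genes, Tbx3 has no H3K27me3 bar at its start site, Tbx6 has no bar of any list, and the H3K27me3 replicate 1 peak at Tbx4 runs on beyond the window.

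Tbx1, Tbx20 and Tbx18 act in the heart and its surroundings. Tbx1 patterns the pharyngeal apparatus and the cardiac outflow tract, Tbx20 the heart chambers, and Tbx18 the sinus node, the epicardium and the anterior part of each somite. Tbx1 (ENSMUSG00000009097) lies on the minus strand at chr16:18581806-18588113. The AEBP2 peak measured 12519 bp in replicate 1 and 12352 bp in replicate 2, that of FS2-AEBP2 14794 bp, and those of H3K27me3 21887 and 19411 bp. All 5 peaks held the whole of Tbx1, with its 8 exons, and the AEBP2 replicates began 4197 and 4200 bp before the start site and ended 8321 and 8151 bp after it. Both ends of the AEBP2 peak lay within the H3K27me3 peaks of either replicate.

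Tbx20 (ENSMUSG00000031965) lies on the minus strand at chr9:24527648-24578746. At the promoter, H3K27me3 peaks of 15643 and 16257 bp stood over AEBP2 peaks of 1929 bp (replicate 1) and 5604 bp (replicate 2) and an FS2-AEBP2 peak of 1095 bp. The H3K27me3 peaks had nearly the same ends in both replicates, 8784 and 9463 bp before the start site and 6858 and 6793 bp after it, while inside them the AEBP2 signal was called as several separate peaks. Exons 1 to 3 of 8 lay in H3K27me3 peaks of each replicate, exons 1 and 2 in AEBP2 replicate 1 and FS2-AEBP2 peaks, and exons 1 to 3 in AEBP2 replicate 2 peaks. The gene spans 51099 bp, and H3K27me3 covered 13.4% and 13.3% of it.

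Tbx18 (ENSMUSG00000032419) lies on the minus strand at chr9:87597635-87626095. At the promoter the replicates were close in length, with AEBP2 peaks of 3172 and 3196 bp and H3K27me3 peaks of 18896 and 19410 bp, and FS2-AEBP2 had a peak of 2652 bp. Both AEBP2 peaks contained the start site, beginning 457 and 367 bp before it. The FS2-AEBP2 peak began 240 bp after it, within the promoter as defined but not on the start site itself. H3K27me3 lay mostly before the gene, from 13938 bp before to 4957 bp after the start site in replicate 1 and from 14674 bp before to 4735 bp after it in replicate 2, and covered 17.4% and 16.6% of the gene body. AEBP2 and FS2-AEBP2 also had peaks before the gene, outside the promoter. With all peaks counted, AEBP2 covered 6050 and 12243 bp of the merged H3K27me3 region described below, and FS2-AEBP2 11046 bp.

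Tbx5 and Tbx4 are the T-box genes of forelimb and hindlimb, and Tbx5 is also a regulator of heart development. Tbx5 (ENSMUSG00000018263) lies on the plus strand at chr5:120284672-120335227. Its AEBP2 peak was 4754 bp long in replicate 1 and 9803 bp in replicate 2, its FS2-AEBP2 peak 5424 bp, and its H3K27me3 peaks 22248 and 17415 bp. All 3 AEBP2 lists began between 3649 and 3985 bp before the start site, and what replicate 2 called as 1 peak to 6144 bp after it was 3 peaks in replicate 1 and for FS2-AEBP2. The gene body of 50556 bp was covered by H3K27me3 to 42.5% and 23.7%, and by AEBP2 to 8.71% and 15.9%.

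Tbx4 (ENSMUSG00000000094) lies on the plus strand at chr11:85699924-85729599. Here the H3K27me3 replicates were furthest apart, with promoter peaks of 45956 and 15695 bp, and AEBP2 had peaks of 5798 bp (replicate 1) and 9769 bp (replicate 2) and FS2-AEBP2 one of 6728 bp. The replicate 1 H3K27me3 peak was the longest at any member promoter and contained all 9 exons, from 13251 bp before to 32704 bp after the start site. Replicate 2 ended 14119 bp after the start site, over exons 1 to 5, with a further peak of 180 bp in the gene body. In all 3 AEBP2 lists exons 1 to 3 lay in peaks. The extent of H3K27me3 over the second part of Tbx4 therefore rested on 1 replicate.

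Tbx2 and Tbx3 encode closely related repressors, active in the atrioventricular canal and, for Tbx3, the conduction system and the mammary gland. Tbx2 (ENSMUSG00000000093) lies on the plus strand at chr11:85646053-85655450. The longest peak at its promoter was 14079 bp in AEBP2 replicate 1, 16457 bp in replicate 2 and 8222 bp for FS2-AEBP2, and for H3K27me3 it was 22409 and 23882 bp. The AEBP2 and H3K27me3 peaks of both replicates held the whole gene, and FS2-AEBP2 covered 90.3% of it with 2 peaks of 2158 and 8222 bp. All 7 exons lay in peaks of every list, as did all 8 exons of Tbx1. These were the only members covered whole in every endogenous list.

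Tbx3 (ENSMUSG00000018604) lies on the plus strand at chr5:120120678-120134733. Its longest promoter peak was 3298 bp in AEBP2 replicate 1 and 1882 bp in replicate 2, against 14011 bp for FS2-AEBP2 and 16848 and 16190 bp for H3K27me3. Neither H3K27me3 peak reached the start site. They ended 260 and 253 bp before it, and the next H3K27me3 peaks began 1378 and 1169 bp after it. The AEBP2 replicate 1 peak ended 161 bp before the start site, whereas AEBP2 replicate 2 had a peak of 744 bp on it and FS2-AEBP2 a peak from 8122 bp before to 5888 bp after it. Of the 3349 promoters with H3K27me3 in both replicates, 493 (14.7%) had a start site outside both, and Tbx3 was the single member among them. Within the gene, AEBP2 replicate 2 had peaks of 803 and 608 bp over CpG-island-like regions that begin 9433 and 12023 bp after the start site, where FS2-AEBP2 also had a peak and AEBP2 replicate 1 and both H3K27me3 lists had none. FS2-AEBP2 covered 77.4% of the Tbx3 gene body, AEBP2 8.0% and 33.9%, and H3K27me3 23.7% and 59.6%.

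The share of the gene body inside peaks thus ran from 0% at Tbx6 to 100% at Tbx1 and, in the endogenous lists, at Tbx2. Over the 10 genes its median was 15.7% and 28.2% in the AEBP2 replicates, 26.9% for FS2-AEBP2, and 67.3% and 49.3% in the H3K27me3 replicates. Over all 3349 genes with H3K27me3 at the promoter in both replicates, the medians were 0%, 1.34%, 0%, 13.4% and 9.95% in the same order. The genes covered most span 6308 bp (Tbx1) and 9398 bp (Tbx2), and those of the 9 covered least by H3K27me3 span 28461 bp (Tbx18) and 51099 bp (Tbx20).

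The score that the peak caller gives each peak has no stated scale, so it was read only as the percentage of peaks of the same list with a lower score. For the best-scoring promoter peak its median over the 9 genes was 77.2% and 92.7% in the AEBP2 replicates, 91.1% for FS2-AEBP2, and 95.5% and 93.3% in the H3K27me3 replicates. Over all promoters with a peak the medians were 47.2%, 51.9%, 57.5%, 79.4% and 71.6%. Tbx2 ranked highest in AEBP2 and H3K27me3, above 95.3% and 98.8% of the AEBP2 lists and 99.8% and 98.3% of the H3K27me3 lists, and above 95.9% for FS2-AEBP2. Tbx1 ranked above 91.9%, 98.4%, 96.8%, 99.3% and 97.1% of the lists in the same order, and was the highest member for FS2-AEBP2. The lowest ranks were those of Tbx5 in AEBP2 replicate 1 (54.7%), of Tbx20 in AEBP2 replicate 2 (67.4%), of Tbx20 for FS2-AEBP2 (57.5%), and of Eomes in H3K27me3 replicate 2 (71.6%). The last 2 equalled the median of all promoters with a peak. At 7 genes the percentage in AEBP2 replicate 2 was above that in replicate 1, for example from 54.7% to 79.1% at Tbx5 and from 72.5% to 96.6% at Tbx4, and the exceptions were Tbx18 and Tbx20. The percentage is scaled to the number of peaks in its list, whereas a place counted from the top is not. Replicate 2 holds 6779 peaks against 2877, and whether this bears on the percentages was not tested. Counted from the top of the list, Tbx5 went from place 1079 to 1309 and Tbx4 from 658 to 215. Tbx1, Tbx2, Tbx4 and Eomes were nearer to the top by place in replicate 2, and the other members with a peak were further from it. Among the latter, T, Tbx3 and Tbx5 still had the higher percentage in replicate 2, the longer list. Percentages of the remaining genes are given by their range, since a gene's replicates could differ as much as neighbouring genes did.

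**Figure D4:**
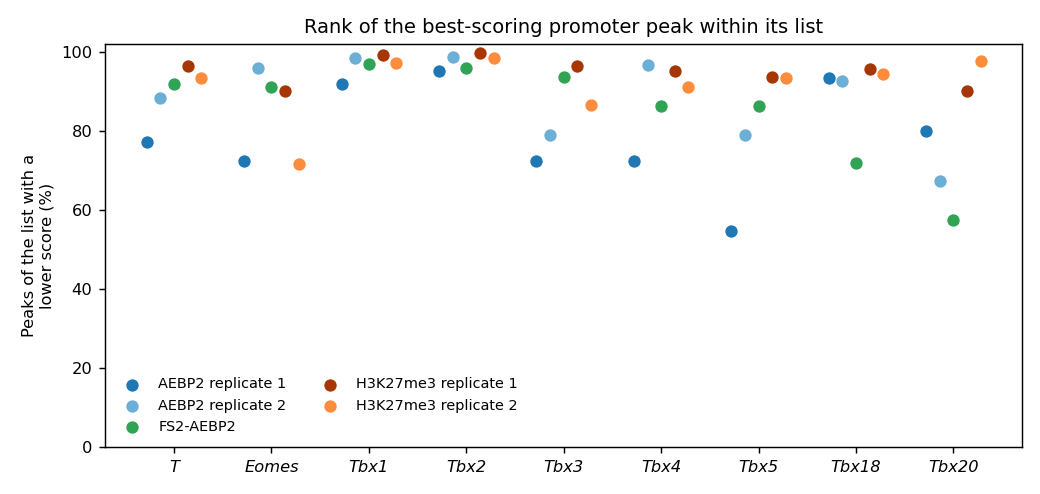
Percentage of the peaks of a list whose score is lower than that of the best-scoring promoter peak, for 9 T-box genes and 5 lists (1 point each). H3K27me3 replicate 1 points lie from 90.2% to 99.8%, and the AEBP2 replicate 1 points spread from 54.7% to 95.3%.

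Overlapping H3K27me3 peaks of the replicates were merged into regions, of which those seen in both replicates were used. The region at a member promoter measured 45956 bp at Tbx4, 23882 at Tbx2, 22248 at Tbx5, 21892 at Tbx1, 19632 at Tbx18, 16855 at Tbx3, 16322 at Tbx20, 16145 at T and 14812 bp at Eomes. Among the 5801 regions of the genome these ranked from 15 (Tbx4) to 426 (Eomes) by length. The median was 19632 bp for the members and 5875 bp for the 3262 regions at a promoter. No start site of another protein-coding gene lay in any of them. Replicate 1 covered all of the regions at Tbx4, T and Tbx5, and replicate 2 44.3%, 64.1% and 78.3% of them, so the lengths of these regions rest on replicate 1. At Eomes replicate 1 covered 94.2% of the region in 1 peak and replicate 2 89.7% in 3 peaks.

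AEBP2 peaks filled part of each region. At Tbx2 the share was 65.4% and 71.1% in the AEBP2 replicates and 50.9% for FS2-AEBP2, and at Tbx1 57.2%, 62.3% and 67.6%. At Tbx4, with the longest region, it was lowest, at 16.5%, 25.3% and 18.8%. At Tbx3 it was 32.5%, 60.9% and 82.6%, the largest gap between lists, and at Tbx18 30.8%, 62.4% and 56.3%. The share was larger in AEBP2 replicate 2 than in replicate 1 at all 9 genes, and above 50% at 2 genes in replicate 1 (Tbx1 and Tbx2), at 7 in replicate 2 and at 5 for FS2-AEBP2. Over the 9 regions the medians were 32.5%, 60.9% and 50.9%, and over the 3262 promoter regions 0%, 17.6% and 0%. Longer regions held more AEBP2 base pairs in the endogenous lists, with a Spearman rho over the 9 genes of 0.867 and 0.767, and 0.233 for FS2-AEBP2. The AEBP2 base pairs were counted inside the region only, so its length limits them and part of the relation is built in. The relation describes 9 genes that share their libraries.

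The base pairs inside a peak of every list numbered 12349 at Tbx1 and 11951 at Tbx2, and from 3655 at T to 7617 at Tbx5 for the other members. At Tbx1 they formed 1 stretch from 4197 bp before to 8151 bp after the start site, which was 56.4% of the region, and at T 1 stretch from 1883 bp before to 1771 bp after it. The longest shared stretch also held the start site at Eomes and Tbx5. At the other 5 genes it lay to one side of the start site. It was from 773 to 8994 bp after it at Tbx2, from 836 to 5037 bp after it at Tbx4 and from 2266 to 4126 bp after it at Tbx20, and it was before the gene at Tbx3 (3458 to 1271 bp) and Tbx18 (9426 to 6754 bp).

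CpG content was not used to choose the genes. Over the 2001 bp of the promoter, the number of CpG was 174 at Tbx2, 142 at Tbx3, 132 at Tbx1 and at Tbx18, 127 at Eomes, 125 at T, 85 at Tbx20, 62 at Tbx4, 47 at Tbx6 and 33 at Tbx5. The median was 61 over all promoters, 94 over those with H3K27me3 in both replicates and 117 over those with a peak in all 5 lists. A CpG-island-like region (500 bp windows that reach 55% GC and hold CpG at 0.65 or more of the number their base composition predicts) overlapped the promoter of 7 members, all but Tbx4, Tbx5 and Tbx6. It was found at 55% of all promoters and at 86.0% of those with H3K27me3 in both replicates. Tbx4 and Tbx5 thus had peaks in all 5 lists without such a region in the promoter, which was the case at 33 of 10057 promoters without one (0.328%), against 990 of 12310 with one (8.04%). Their CpG-island-like regions lay further off. Those of Tbx4 began 3587 and 8387 bp after the start site, those of Tbx5 began 3321 bp before it and 2359 and 5139 bp after it, and every one of these 5 had a peak in all 5 lists.

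Within the 9 H3K27me3 regions lay 29 CpG-island-like regions, from 1 at T and Tbx3 to 7 at Tbx2, with a median of 3 where the median of all promoter regions was 1. A peak of AEBP2 replicate 1 was found at 26 of them (89.7%), of AEBP2 replicate 2 at all 29, and of FS2-AEBP2 at 24 (82.8%). Over all 3262 promoter regions, which hold 3995 such sites, the shares were 52.2%, 78.1% and 49.8%. In base pairs, the median share of CpG-island-like sequence inside peaks was 100%, 100% and 89.1%, while that of the rest of the region was 24.8%, 48.1% and 47.9%. No such base-pair shares are given over all promoter regions, so they describe the members only. CpG-island-like sequence was covered to a larger share than the rest at all 9 genes for FS2-AEBP2 and AEBP2 replicate 1, and at 8 in AEBP2 replicate 2. The exception was Tbx3 in AEBP2 replicate 2, with 30.7% of its CpG-island-like sequence and 62.3% of the rest, where the region stops before the start site and holds only 765 bp of an island-like stretch of 2770 bp. At Tbx2, FS2-AEBP2 had no peak on the 3 sites from 9058 to 12297 bp after the start site, which lie nearest to the start site of Gm11444, while both AEBP2 and both H3K27me3 lists had one. Over the 9 genes, the base pairs of CpG-island-like sequence in a region were ranked against those inside peaks. Spearman rho was 0.367 and 0.483 in the AEBP2 replicates and 0.200 for FS2-AEBP2. These lie below the values for region length, part of which is built in.

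**Figure D5:**
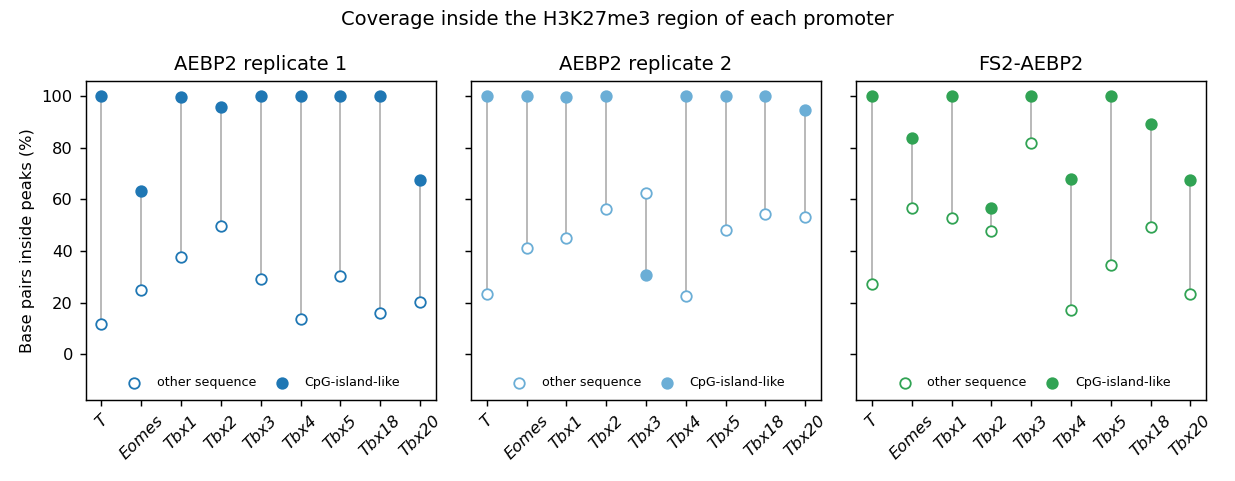
Percentage of base pairs inside AEBP2 peaks within the H3K27me3 region of each of 9 T-box promoters, for CpG-island-like sequence (filled) and the rest of the region (open), in 3 lists. Filled points lie above open points except at Tbx3 in AEBP2 replicate 2 (30.7% and 62.3%).

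T-box proteins bind a DNA motif with the core TCACACC, which was searched on both strands of the promoters. It was present at 1 of the 10 members, Tbx5, and at 23.2% of all promoters of the same length. No T-box protein was measured, and the match describes letters only.

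Tbx2 with Tbx4 and Tbx3 with Tbx5 are neighbouring pairs that arose by duplication of an ancestral pair. The start sites of Tbx2 and Tbx4 on chromosome 11 are 53871 bp apart, and the 44473 bp between the genes hold the protein-coding gene Gm11444. AEBP2 peaks covered 6.77% and 11.6% of this interval, FS2-AEBP2 2.05%, and H3K27me3 44.2% and 29.4%. The start sites of Tbx3 and Tbx5 on chromosome 5 are 163994 bp apart, and the 149938 bp between these genes hold no protein-coding gene. AEBP2 covered 4.18% and 10.7% of them, FS2-AEBP2 10.8%, and H3K27me3 40.5% and 20.4%, in 12 and 6 peaks. In both intervals H3K27me3 covered a larger share than AEBP2 in every pairing of lists.

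Of the 7 other T-box genes of the annotation, a promoter peak was found at 3 in each AEBP2 replicate, at 2 for FS2-AEBP2 and at 3 in each H3K27me3 replicate. Tbx15, which acts in skeletal and skin patterning, and Tbx21, which encodes the Th1 factor T-bet, had one in all 5 lists, with H3K27me3 peaks of 24237 and 29172 bp at Tbx15 and of 8646 and 6832 bp at Tbx21. Tbr1, a regulator of cortical neurons, had H3K27me3 peaks of 17403 and 15802 bp at the promoter, while its AEBP2 peaks began 2063 and 1740 bp and its FS2-AEBP2 peak 1962 bp after the start site, outside the promoter as defined and over a CpG-island-like region that begins 1804 bp after it. Mga, which encodes a MAX-binding protein with a T-box and is expressed broadly, had short AEBP2 peaks of 312 and 597 bp on its start site, no FS2-AEBP2 peak and no H3K27me3 peak, the nearest being 136274 and 136425 bp away. No promoter peak of any list was found at Tbx10, Tbx19 and Tbx22. Tbx22 had H3K27me3 peaks of 1774 and 5004 bp within the gene and no AEBP2 peak there, and Tbx19 had a peak of 2037 bp over its 3′ end in H3K27me3 replicate 1 alone.

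Genes that work with T-box factors in the same tissues were counted in the same way, from a list of 22. A promoter peak was found at 10 of them in AEBP2 replicate 1, 15 in AEBP2 replicate 2, 12 for FS2-AEBP2, and 16 in each H3K27me3 replicate. Of 10 genes of the primitive streak and somites, Dll1, Fgf8, Gsc and Wnt3a had a peak in all 5 lists, and Mesp1, Mesp2, Mixl1 and Ripply2 had H3K27me3 in both replicates with AEBP2 in replicate 2 but not replicate 1. Of these, Mesp1 and Mixl1 also had an FS2-AEBP2 peak, and Mesp2 and Ripply2 did not. Msgn1 and Ripply1 had no promoter peak in any list. Of 8 heart genes, Hand1, Hand2, Isl1 and Nkx2-5 had a peak in all 5 lists, Gata4 lacked those of AEBP2 replicate 1 and FS2-AEBP2, Myh6 had H3K27me3 alone, and Mef2c and Nppa had none. Of 4 limb genes, Pitx1 and Shh had a peak in all 5 lists, and Fgf10 and Sall4 had none. Of 8 genes active in mESCs (Pou5f1, Nanog, Sox2, Klf4, Esrrb, Zfp42, Tdgf1 and Utf1), none had an AEBP2 promoter peak in either replicate, and Klf4 alone had a peak for FS2-AEBP2 and in H3K27me3 replicate 1.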

How the data were processed

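The samples were ChIP-seq libraries of wild-type mESCs for endogenous AEBP2, H3K27me3 and FS2-AEBP2. Per the labels, the authors aligned reads to mm9, and the submitters' processing notes name Bowtie, SAMtools, Picard and MACS2 2.0.10.2, with settings not given in the sources used here. The authors called peaks in each sample and deposited, per peak, positions and a whole-number score whose scale is not stated, so only its rank within a list was used. Read counts were not used here and depth is unknown. Peaks on unplaced, unlocalised and mitochondrial sequences were dropped, which removed 2 peaks of AEBP2 replicate 1 and 13 of H3K27me3 replicate 2.

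A promoter reached 1 kb up and downstream of the 5′ end of the GENCODE vM1 gene record, and an overlap of 1 bp counted. For CpG-island-like regions, 500 bp windows at steps of 10 bp that passed were merged. Genes named were the 10 members, the 7 other T-box genes, a list of 22 genes of mesoderm, heart and limb, 8 mESC genes, and genes whose start site lies in a member's H3K27me3 region. Members and lists were chosen with earlier results of these data known, and no tests were made. Alternatives were promoters of 2.5 kb, the start site base itself, any transcript start, peaks at or above the median score of their list, an overlap of 500 bp, peaks joined within 1 kb, the nearest peak, the score rank of the longest peak or with ties counted, gene bodies with 5 kb added, and each replicate left out. The overlap code was tested on simulated peaks. Python 3.11.15, numpy 2.4.6, pandas 2.3.3, matplotlib 3.10.9, pysam 0.24.0 and samtools 1.23.1 were used.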

Additional observations from a re-analysis of the deposited data

How the results depend on the processing

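No paired analysis was possible because the results come from no test and are given for each list. The promoters of the same 9 genes had a peak in every list with a promoter of 2.5 kb on either side, with any protein-coding transcript start, with peaks at or above the median score of their list, and with an overlap of at least 500 bp. Where the start site base itself had to lie in a peak, the count was 8 in AEBP2 replicate 1 (Tbx3 lost), 8 for FS2-AEBP2 (Tbx18 lost) and 8 in each H3K27me3 replicate (Tbx3 lost), and remained 9 in AEBP2 replicate 2. The share of all promoters with a peak fell with peaks at or above the median score to 5.15% (AEBP2 replicate 1), 13.5% (AEBP2 replicate 2) and 3.94% (FS2-AEBP2), and with the start site base to 3.24% for FS2-AEBP2 and 11.4% in H3K27me3 replicate 2. It also fell in the other lists, by less. The median score gave 14.4% and 13.6% in the H3K27me3 replicates. The start site base gave 6.43% and 17.1% in the AEBP2 replicates and 13.4% in H3K27me3 replicate 1. Joining peaks within 1 kb gave median promoter peak lengths of 5522, 12321 and 10000 bp in AEBP2 replicates 1 and 2 and for FS2-AEBP2, and the peak nearest to the start site gave 4234 bp for FS2-AEBP2. The median H3K27me3 region over the member promoters was 21524 bp with peaks joined within 1 kb and from 16257 to 18896 bp with 1 replicate left out. These changes follow from how each alternative is built. Of the other values recomputed for these summaries, 100 counted as unchanged, and of those for single genes 294 did and 58 moved, with no sign to turn. For counts and shares of promoters, unchanged meant within a fixed ratio of the main value. For lengths, ranks and coverage it meant within the standard deviation between the 2 replicates, and FS2-AEBP2 took that of AEBP2. This limit is wide where replicates differ. The median share of the H3K27me3 region covered by AEBP2 replicate 1 went from 32.5% to 46.2% without H3K27me3 replicate 1, and counted as unchanged. Depth is unknown and FS2-AEBP2 has 1 sample, so its values have no replicate error of their own.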

Other observations

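Each deposited peak is divided into inner blocks, which in the gapped peak layout of MACS2 are stretches that pass a stricter threshold than the peak as a whole. The files do not state this, so the blocks are given as positions only. In the longest promoter peak of Tbx1 they made up 77.6% and 92.0% of the length in the AEBP2 replicates and 72.4% and 78.0% in the H3K27me3 replicates, where the median peak of these lists had 44.4%, 52.1%, 31.8% and 40.2%. At Tbx20 the shares for H3K27me3 were 75.3% and 79.7%, those for AEBP2 42.1% and 29.6%, below the median of either list, and that for FS2-AEBP2 65.9%, above its list's median of 50.3%. The start site of Tbx20 lay in an inner block in all 5 lists, and so did that of Tbx1. The start sites of Tbx5 and Tbx18 lay in no inner block of any list. The longest block at Tbx5 ended 370 bp before the start site in AEBP2 replicate 1, 274 bp before it for FS2-AEBP2, and 77 and 69 bp before it in the H3K27me3 replicates, while in AEBP2 replicate 2 it lay from 5092 to 6074 bp after it. The longest H3K27me3 block at Tbx2 measured 5824 and 8698 bp and lay inside the gene in replicate 1, from 3208 to 9031 bp after the start site, and from 845 to 9542 bp after it in replicate 2.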
